A study of Danio rerio with 2 samples.

Results

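The Id genes id1, id2a, id2b and id3 and the Myc genes mycn, myca, mycb and mych were examined in zebrafish neural crest cells and in the remaining cells of the same embryos. They were selected by name from a table of gene expression values, and all 8 named genes had a row among the 14428 rows. The embryos were of the genotype crestin_1kb:EGFP, in which a fragment of the regulatory DNA of crestin, a zebrafish gene of the neural crest, drives the green fluorescent protein EGFP. They were raised at 28 °C to the 15 somite stage (15 SS), and no other allele or agent was named. Fluorescence-activated cell sorting gave 1 EGFP-positive sample of about 5500 cells and 1 EGFP-negative sample of about 100000 cells. The number of embryos pooled was not stated, and crestin and EGFP were not analysed here. Expression is given as FPKM, the fragments assigned to a gene per kilobase of its length and relative to all mapped fragments, so levels of different genes can be set side by side. Each fraction was measured in 1 library, so values carry no replicate error, nothing was tested, and differences are described by size.

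Id proteins are helix-loop-helix proteins without a DNA-binding region. They bind the E proteins, the common partners of tissue-specific basic helix-loop-helix (bHLH) factors, and so keep those factors off DNA, and their genes are typical targets of bone morphogenetic protein (BMP) signalling. Myc proteins are bHLH leucine zipper factors that bind DNA together with Max and drive genes of growth, ribosome production and metabolism. The Mxd, Mxi1 and Mnt proteins compete for Max and act as repressors. In Xenopus, c-Myc and its target Id3 are needed to keep neural crest progenitors, and in zebrafish mych is needed for survival of the crest.

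The labelled cell type was set beside neural crest markers. All marker lists were chosen with earlier results of these data known, so their counts are no independent check of the label. Of 15 such genes 11 were at least 2-fold higher in the EGFP-positive fraction and none was lower, and their summed level was 2124 FPKM against 747 FPKM in the EGFP-negative fraction. None was listed at 0 in the EGFP-negative fraction, so transcripts of these marker genes were present there too. Whether they came from crest cells was not tested. Markers of skeletal muscle summed to 104.6 against 413 FPKM, with 9 of 11 lower and 1 higher. Those of heart summed to 269 against 1885 FPKM, with all 5 measured ones lower. The heart gene tnnt2a was listed at 0 among EGFP-positive cells, while myl7 remained at 156 FPKM there. Kidney markers summed to 285 against 85.2 FPKM with 5 of 6 higher, and hatching gland markers to 1633 against 580 FPKM with 3 of 5 higher and 1 lower. None of the kidney or hatching gland markers was at 0 in either library. Epidermal markers summed to 954 against 974 FPKM, with 3 of 8 higher. Of the markers of endothelium 4 of 6 were lower, of blood 2 of 8, of neural tube 4 of 9 with 1 higher, and of notochord 3 of 5. Across the 9685 genes considered below, 22.9% were higher by 2-fold or more and 26.5% lower. The 2 of 8 for blood thus lies near the share of all genes, and no marker count was tested against these shares. The part of these other cell types in the Id and Myc values was not tested. In such sorted bulk samples, a lower level from fewer cells of a type and one from less RNA per cell cannot be told apart.

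Differences were taken as log2(FPKM + 1) in EGFP-positive cells minus the same in EGFP-negative cells, here called the log2 ratio, and a gene was called higher or lower at 2-fold on this scale. Id2a and id2b were called higher, none of the 8 was called lower, and the other 6 lay between. Among all 9685 genes of at least 1 FPKM in either library, 22.9% were called higher and 26.5% lower, so 2 of 8 is a share near that of all genes. The 8 genes had a median log2 ratio of 0.78, against -0.04 over all genes considered. Id2b was listed at 0 among the EGFP-negative cells. At these settings any considered gene listed at 0 in 1 library is called, so the call of id2b follows from its listed 0. The other 7 had a median of 0.76, against 0.03 over the 7449 genes above 0 in both libraries, and 1 of the 7 was called higher, against 17.8% of those genes called higher and 16.5% lower.

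**Figure D1:**
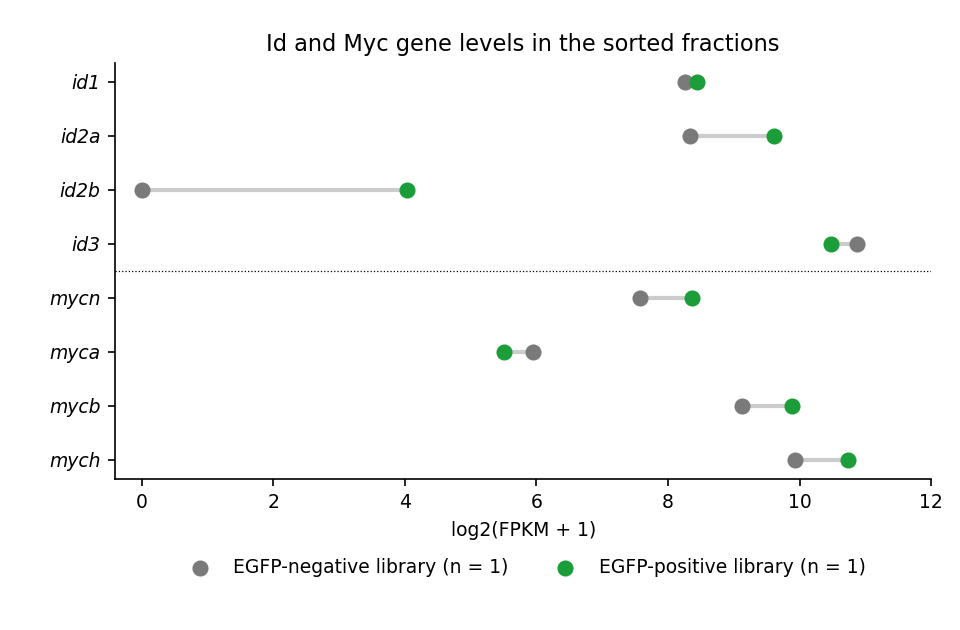
Level of each Id and Myc gene as log2(FPKM + 1) (horizontal axis) in the EGFP-negative fraction (grey) and the EGFP-positive fraction (green), 1 library each, with no error bars because there are no replicates. Id2a, mycn, mycb and mych lie to the right in the EGFP-positive fraction, id3 and myca to the left, id1 nearly coincides, and id2b is at 0 in the EGFP-negative fraction.

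Id3 was the most abundant Id gene in both fractions. It stood at 1421 FPKM in the EGFP-positive fraction and 1864 FPKM in the EGFP-negative fraction, which ranked it 95 among 8439 genes above 0 in the first and 62 among 8951 in the second. Its level was somewhat lower in the crest fraction, at a log2 ratio of -0.39, which is short of a 2-fold call. Of 114 genes whose geometric mean reached 1000 FPKM, which had a median log2 ratio of 0.24, 92.1% had a log2 ratio at or above that of id3. In either direction, 46.5% of them differed by at least as much. Id3 was thus among the most abundant transcripts of the crest fraction without being higher there than in the other cells.

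Id2a had the highest log2 ratio among the members above 0 in both libraries. Its level was 780.3 FPKM in the EGFP-positive fraction and 322 FPKM in the EGFP-negative fraction, a log2 ratio of 1.27 and a 2.42-fold ratio of FPKM. Among the 1088 genes with a geometric mean from 100 to under 1000 FPKM, 10.6% were called higher and 6.80% had a log2 ratio at least as large as that of id2a. A difference at least as large in either direction was seen in 12.8%. The SD of the log2 ratio across those genes was 0.85, a scatter between genes and not between replicates. Among the neural crest markers, whose median log2 ratio was 1.53, the mesenchymal and crest factor twist1a had a similar value of 1.31, while sox10, a factor of crest and glia, reached 3.10.

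Id2b, the duplicate of id2a, stood at 15.4 FPKM in the EGFP-positive fraction and was listed at 0 in the EGFP-negative one. No fold is given against a 0, because a listed 0 can be a failed estimate. In the EGFP-positive fraction its level was far under that of its duplicate, and id2a was 50.6 times as abundant. Of all genes considered, 23.1% were listed at 0 in 1 of the 2 libraries, so a listed 0 was common. Like id2b, 893 of the 9685 genes were at 0 in the EGFP-negative library, while 1343 were at 0 in the EGFP-positive one. A log2 ratio at least as large as that of id2b was seen in 3.11% of the genes considered.

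Id1 was close in the 2 fractions, at 345 FPKM in the EGFP-positive fraction and 306 FPKM in the EGFP-negative fraction. The log2 ratio was 0.17, or 0.00039 under scaling to equal summed FPKM without rn7sk, an abundant small nuclear RNA, and 79.1% of the 1088 genes with a geometric mean from 100 to under 1000 FPKM differed by at least as much in either direction. Id4, the remaining Id gene, was listed at 0 in both libraries.

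The order of the Id genes from high to low, id3, id2a, id1 and id2b, was the same in both fractions, although id2a and id1 were nearly level in EGFP-negative cells, and without replicates no neighbours in this order can be told apart by their spread. In EGFP-negative cells id3 made up 74.8% of the summed Id level, id2a 12.9% and id1 12.3%. In the EGFP-positive fraction id3 made up 55.5%, id2a 30.5%, id1 13.5% and id2b 0.602%. The sum itself was 2562 FPKM in the EGFP-positive fraction and 2493 FPKM in the EGFP-negative fraction, a log2 ratio of 0.04 that became -0.13 when the libraries were scaled to equal summed FPKM without rn7sk. The Id genes as a family thus lay level between the fractions, while the makeup of the sum differed, with more id2a and less id3 in the crest fraction. Without id3, the other Id genes summed to 1141 against 628 FPKM.

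**Figure D2:**
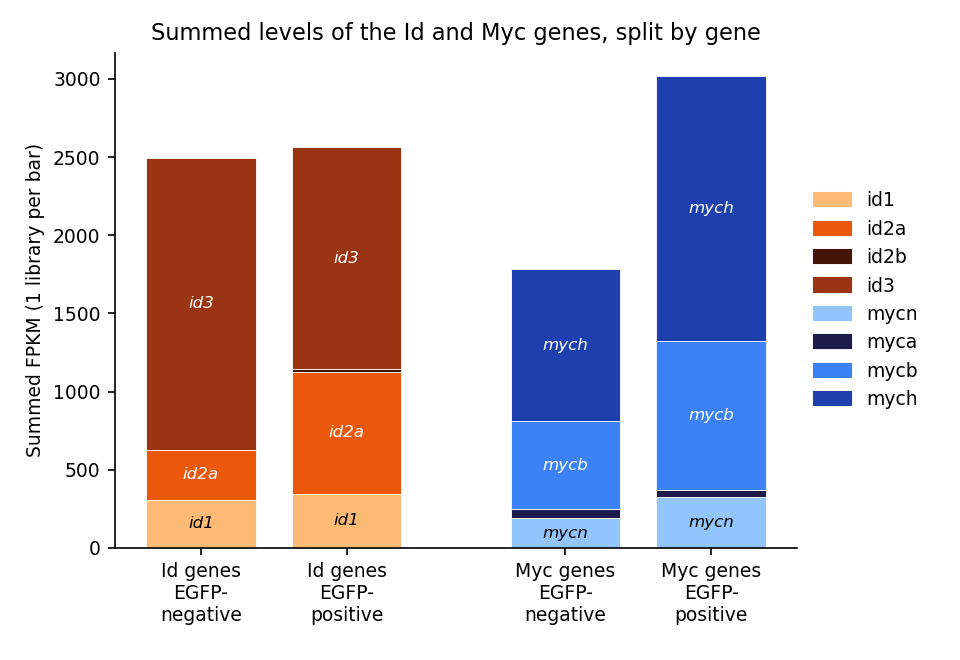
Summed FPKM (vertical axis, from 0) of the 4 Id genes and of the 4 Myc genes in each library, split by gene, with 1 library per bar and no error. The Id bars are of nearly equal height, 2493 and 2562 FPKM, with a larger id2a block in the EGFP-positive fraction, while the Myc bar is higher there, 3017 against 1786 FPKM, with nearly the same shares of mych, mycb and mycn.

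Mych, mycb and mycn were each about 1.7-fold higher in the EGFP-positive fraction, short of a 2-fold call. Mych, a further zebrafish Myc gene, was the most abundant Myc gene in both fractions, at 1696 against 978 FPKM, and in the EGFP-positive fraction it exceeded id3 as well. It ranked 75 among all genes in the EGFP-positive fraction and 114 in the EGFP-negative fraction. Mycb, one of the zebrafish duplicates of mammalian Myc, stood at 949 against 558 FPKM. Mycn, the counterpart of the mammalian gene amplified in neuroblastoma, a tumour of crest origin, stood at 328 against 189 FPKM. Their log2 ratios were 0.79 for mych, 0.76 for mycb and 0.79 for mycn, and the plain ratios of FPKM were 1.73, 1.70 and 1.73.

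Differences of this size were not rare among genes of like level. Of the 114 genes whose geometric mean reached 1000 FPKM, 13.2% had a log2 ratio at least as large as that of mych. Of the 1088 genes from 100 to under 1000 FPKM, 14.6% reached that of mycn and 15.2% that of mycb. Counting both directions, the shares were 15.8% for mych, 28.3% for mycn and 29.5% for mycb. With a call at 1.5-fold in place of 2-fold, these 3 genes joined id2a and id2b. That gave 5 of 8 higher, against 31.5% of all genes considered, while none was 1.5-fold lower, against 34.5%. Under the scaling without rn7sk, however, myca had a log2 ratio of -0.62, which is more than 1.5-fold lower. Mycb, at 0.59, was barely past 1.5-fold there.

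Myca, the other duplicate of mammalian Myc, went the other way and was the least abundant of the 4. It stood at 44.6 FPKM in the EGFP-positive fraction and 61.1 FPKM in the EGFP-negative fraction, a log2 ratio of -0.45. Among the 2858 genes with a geometric mean from 20 to under 100 FPKM, 62.1% differed by at least as much in either direction. The duplicates myca and mycb lay on opposite sides, with log2 ratios of -0.45 and 0.76, and mycb was more abundant than myca in both libraries.

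The 4 Myc genes summed to 3017 FPKM in the EGFP-positive fraction and 1786 FPKM in the EGFP-negative fraction, a 1.69-fold ratio of FPKM and a log2 ratio of 0.76, or 0.58 under the scaling without rn7sk. Mych, mycb and mycn each took nearly the same share of the sum in both, and myca a smaller one among EGFP-positive cells. Mych made up 56.2% in the EGFP-positive fraction and 54.7% in the EGFP-negative fraction, mycb 31.4% and 31.3%, mycn 10.9% and 10.6%, and myca 1.48% and 3.42%. The summed Id level was 0.849 times the summed Myc level in the EGFP-positive fraction and 1.40 times in the EGFP-negative one. As a share of all FPKM without rn7sk, the Myc genes made up 0.321% against 0.214% and the Id genes 0.273% against 0.299%.

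The related L-Myc genes, which are no members of the set, lay on the same side. Mycl1a stood at 125 against 76.1 FPKM, a log2 ratio of 0.71, and mycl1b at 38.8 against 29.9 FPKM, a log2 ratio of 0.37. Neither was called. The genes named for binding Myc, mycbp and mycbp2, stood at 3.24 FPKM against a listed 0 and at 42.1 against 37.5 FPKM, and mycbp was the only one called of the 4 measured family relatives. With both L-Myc genes added, the Myc sum was 3181 against 1892 FPKM.

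**Figure D3:**
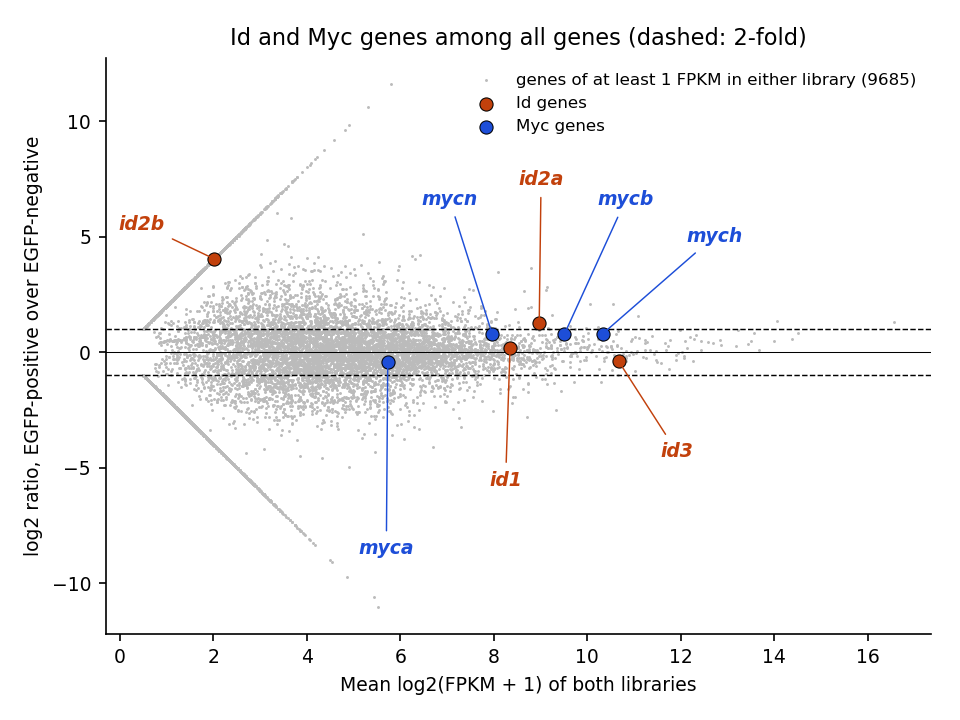
Log2 ratio of EGFP-positive over EGFP-negative (vertical axis) against the mean log2(FPKM + 1) of both libraries (horizontal axis) for the 9685 genes of at least 1 FPKM in either library (grey), with Id genes in orange and Myc genes in blue. The slanted outer lines are genes listed at 0 in 1 library, where id2b lies; id2a is the only other member beyond the dashed 2-fold line, and mycn, mycb and mych lie side by side below it.

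The 3 measured E protein genes, which encode direct partners of Id proteins, showed no common direction, and tcf4 was not analysed here. The row tcf3, an older symbol of tcf3a, stood at 314 against 224 FPKM, the row zgc:113045, listed in RefSeq as tcf3b, at 273 against 268 FPKM, and tcf12 at 43.4 against 62.8 FPKM. None of these 3 genes was called. Their log2 ratios were 0.48 for tcf3, 0.03 for zgc:113045 and -0.52 for tcf12. The median was 0.03, or -0.14 under the scaling without rn7sk. The summed Id level was 4.07 times the summed level of these 3 genes in the EGFP-positive fraction and 4.50 times in the EGFP-negative one. Both figures describe RNA and not protein.

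Tissue-specific bHLH factors, whose activity Id proteins limit, were mostly called lower in the crest fraction, although many were at low values or listed at 0. Of 19 measured genes 12 were called lower, 4 higher and 3 lay between, with a median log2 ratio of -2.08. The shares of all genes considered were 26.5% lower and 22.9% higher, so the higher calls are near the share of all genes. Among the 11 list genes above 0 in both libraries, 2 were higher and 6 lower, and the median was -1.04. Of all genes above 0 in both libraries, 17.8% were higher and 16.5% lower. The median over the list was -0.85 with a pseudocount of 5 FPKM, -0.56 with a minimum of 20 FPKM, and 0 with no minimum, where genes listed at 0 in both libraries count. The muscle determination factor myf5 stood at 5.12 against 55.2 FPKM, the somite factor tcf15, in the row par1, at 3.29 against 28.8 FPKM, and tal1, a factor of blood formation, at 10.8 against 64.1 FPKM. The muscle factor myod1 stood at 29.4 against 61.6 FPKM and the neuronal factor neurod4 at 20.3 against 67.3 FPKM. Twist1a, at 387 against 155 FPKM, and the proneural factor ascl1b, at 19.2 against 2.39 FPKM, were higher. The other higher genes, named after their values were seen, were the neuronal factor neurog1 at 40.9 FPKM and olig4 at 34.1 FPKM, both listed at 0 among EGFP-negative cells. Of the lower genes, 6 were listed at 0 among EGFP-positive cells. Named in the same way, they included ascl1a at 6.77 FPKM and neurod at 16.8 FPKM among EGFP-negative cells. Ascl1a and ascl1b were thus called in opposite directions. The call of ascl1a rests on a listed 0, and that of ascl1b on a low level among EGFP-negative cells. The markers of muscle and heart given above were mostly lower in the same library, and their part in these counts was not tested. Myod1, myf5 and myog were counted among those muscle markers too, so the lists are not separate. Likewise, twist1a was counted among the crest markers, neurog1 among those of neural tube and twist2 among those of notochord.

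Genes of the BMP pathway, an input to Id genes, showed no common direction. Of 27 measured genes 4 were called higher, 7 lower and 16 lay between. Their median log2 ratio was -0.13, or -0.30 under the scaling without rn7sk. The shares over all genes considered were 22.9% higher and 26.5% lower. With only genes above 0 in both libraries, 2 of 22 were higher and 4 lower, against 17.8% and 16.5% of all such genes. The ligand gene bmp4 was at 31.4 against 34.6 FPKM, the signal transducer smad5 at 53.9 against 52.6 FPKM, and bambia, a membrane inhibitor that is itself a BMP target, at 104 against 119 FPKM. The transducer smad1 was higher, at 42.0 against 12.7 FPKM, as was bmper, a secreted BMP-binding protein, at 58.1 against 15.0 FPKM. Lower genes included the type I receptors bmpr1aa, at 34.9 against 75.8 FPKM, and bmpr1ba, at 14.7 against 59.5 FPKM, the intracellular inhibitor smad6a, at 29.3 against 60.9 FPKM, and fsta, a secreted antagonist, at 5.93 against 56.7 FPKM.

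Those partners of Myc and their competitors that had a row were mostly called lower in the crest fraction. Of 13 symbols listed for the Max network, only 5 had a row. Of these 5 genes, 4 were called lower and 1 higher in the EGFP-positive fraction, with a median log2 ratio of -1.33. Over all genes considered, 26.5% were called lower and 22.9% higher. The 5 genes were above 0 in both libraries, and of all such genes 16.5% were lower and 17.8% higher. Mxi1, a repressor that competes with Myc for Max, stood at 30.3 FPKM in the EGFP-positive fraction and 150.9 FPKM in the EGFP-negative fraction, a 4.98-fold lower level. Mxd3, another such repressor, stood at 56.4 against 184 FPKM, 3.26-fold lower. Mntb, a further repressor of the network, was opposite, at 12.5 against 0.82 FPKM. Max, the shared partner, was at 10.1 against 21.4 FPKM, with a log2 ratio of -1.01 just past the 2-fold line, and mlx, a Max-like factor, at 5.48 against 15.3 FPKM.

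The low level of max relative to the Myc genes was seen in both libraries. The summed Myc level was 298 times that of max in the EGFP-positive fraction and 83.4 times in the EGFP-negative fraction. Both ratios rest on 1 row for max, at 10.1 and 21.4 FPKM, and describe RNA and not protein. Mxd3 and mxi1 together amounted to 0.0288 of the summed Myc level in the EGFP-positive fraction and 0.187 of it in the EGFP-negative fraction. With a pseudocount of 5 FPKM in place of 1, or with a call at 3-fold, 2 Max network genes were called lower. A call at 3-fold lower took in 18.2% of all genes considered.

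Cofactors of Myc and genes of its turnover were mostly alike in the 2 fractions. Of 14 measured genes 2 were higher, none was lower and 12 lay between, with a median log2 ratio of 0.04, or -0.13 under the scaling without rn7sk. All 14 were above 0 in both libraries, and of all such genes 17.8% were higher and 16.5% lower. The higher genes included the acetyltransferase gene kat5a, in the row zgc:92510, at 22.1 against 10.3 FPKM. The ubiquitin ligase component skp2 stood at 159 against 105 FPKM and the kinase gene gsk3ab at 52.8 against 88.3 FPKM, and neither was called.

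Genes of ribosome biogenesis that are Myc targets in mammals were mostly uncalled. Of 36 measured genes 4 were higher, 2 lower and 30 between. Many of them had a geometric mean from 100 to under 1000 FPKM. Of all genes in that range 10.6% were called higher and 9.56% lower, so few calls are common at such levels. The median log2 ratio of the 36 genes was 0.15 and became -0.02 when the libraries were scaled to equal summed FPKM without rn7sk. Nop58, a component of the particles that modify ribosomal RNA, stood at 614 against 540 FPKM, and ncl, which encodes nucleolin, at 414 against 519 FPKM. The nucleolar genes npm1a, at 489 against 325 FPKM, and dkc1, at 428 against 326 FPKM, were also uncalled. The helicase gene ddx18, at 295 against 85.5 FPKM, and utp18, at 449 against 202 FPKM, were higher, and mrto4, at 69.9 against 209 FPKM, was lower.

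Metabolic genes that Myc drives in mammals had 5 members called higher and 2 lower of 27, against 22.9% and 26.5% of all genes considered. Among the 25 of them above 0 in both libraries, 4 were higher and 1 lower, against 17.8% and 16.5% of all such genes. The median log2 ratio of the 27 genes was 0.13 and became -0.05 under the same scaling. The chaperonin gene hspe1 was at 1062 against 712 FPKM, the purine synthesis gene paics at 477 against 437 FPKM and the pyrimidine synthesis gene cad at 200.3 against 197 FPKM, none of them called. The higher genes included ldha, which encodes lactate dehydrogenase, at 14.4-fold, the glucose transporter gene slc2a1a at 7.24-fold and shmt2, a mitochondrial enzyme of one-carbon metabolism, at 67.0 against 20.7 FPKM. The hexokinase gene hk2 was low in both, at 1.06 against 3.45 FPKM, and was called lower. Named after their values were seen, 2 called genes were listed at 0 in 1 library. The lower gene tpi1b was at 0 against 110 FPKM, and the higher gene mthfd2 at 91.1 FPKM against 0. Pkma, at 10.4 against 19.0 FPKM, was uncalled.

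Cell cycle genes that Myc or Id proteins regulate in mammals had 4 higher and 1 lower of 26 measured, with 21 between. Over all genes considered, 22.9% were higher and 26.5% lower. Of the 24 list genes above 0 in both libraries, 3 were higher and 0 lower, against 17.8% and 16.5% of all such genes. The median log2 ratio of these cell cycle genes was 0.06 and became -0.11 under the same scaling. Cdk4, the kinase that pairs with D-type cyclins, was higher, at 252 against 87.2 FPKM, as were ccnd2b, at 55.0 against 13.6 FPKM, and ccne1, at 27.7 against 12.6 FPKM. Ccnd1 was at 203 against 251 FPKM, the replication clamp gene pcna at 560 against 633 FPKM and the cell cycle inhibitor gene cdkn1c at 210.4 against 196 FPKM. The retinoblastoma gene rb1, whose product binds Id2 in mammals, was at 95.2 against 179 FPKM, a log2 ratio of -0.90 that was not called.

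**Figure D4:**
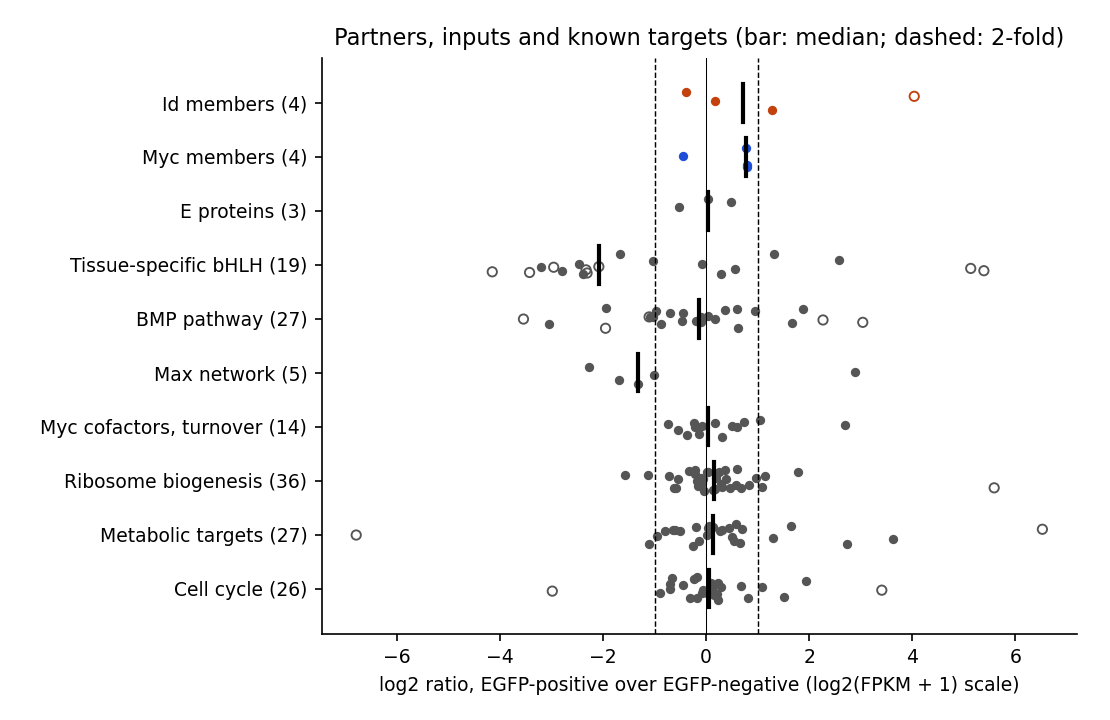
Log2 ratio of EGFP-positive over EGFP-negative (horizontal axis) for each measured gene of the Id and Myc sets and of 8 lists of partners, inputs and known targets, with the number of genes in parentheses; black bars are medians and open circles are genes listed at 0 in 1 library. The Max network and tissue-specific bHLH lists have medians of -1.33 and -2.08, while the target lists have medians between 0.06 and 0.15, which became -0.11 to -0.02 when scaled to equal summed FPKM without rn7sk.

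The genes nearest to each member in level were found by distance in log2(FPKM + 1) over the 2 libraries, a likeness of 2 values only. Nearest to id2a was dut, an enzyme gene of nucleotide metabolism, at 754.8 against 313 FPKM and a distance of 0.064. Mych lay nearest to the translation factor gene eif1b, at 1723 against 941 FPKM, and mycb to the splicing regulator gene ptbp1b, at 895 against 566 FPKM. Mycn lay nearest to zfp36l1a, which encodes an RNA-binding protein, at 326 against 198 FPKM. Id1 lay nearest to the RNA polymerase II subunit gene polr2j, at 354 against 312 FPKM. Id3 had no gene as near, and its closest was the splicing factor gene sfrs3a at a distance of 0.22. Myca lay nearest to the mitochondrial ribosomal gene mrpl12, at 44.5 against 60.4 FPKM.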

How the data were processed

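The authors deposited 1 table of FPKM values with a column for each of the 2 libraries, matched to the samples by their descriptions. Per the labels' protocols, Trizol-extracted total RNA was freed of ribosomal RNA and turned into libraries with a kit for small amounts of RNA. The submitters' processing notes name cutadapt, TopHat2 2.0.11, Cufflinks 2.2.1 and the build Zv9; the options, the annotation and any scaling between libraries are not stated there. FPKM holds no read totals: among 712 genes detected in both libraries at under 6 FPKM, no bin of 0.02 in log2 ratio held over 1.54%, so no read steps were recovered, depth is unknown and no counting interval is given. The most abundant row, the small nuclear RNA rn7sk, took 13.9% of summed FPKM among EGFP-positive cells and 6.85% among EGFP-negative cells. Its effect on the FPKM of other genes was not tested, because the scaling between libraries is not known. The median FPKM of genes above 0 was 21.7 among EGFP-positive cells and 19.9 among EGFP-negative cells.

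Ratios were computed with pandas 2.3.3 and numpy 2.4.6 on log2(FPKM + 1), which understates differences of low genes, among genes of at least 1 FPKM in either library. A call is a size of 2-fold and not a test. Calls were tried on simulated data with known changes and no added noise. That checks the computation only and says nothing on the error of calls from 1 library per fraction. The members, the 9 pathway lists and the 10 marker lists were chosen with earlier results of these data known. Lists of up to 12 measured genes may be named in full, and longer ones by their 6 most abundant genes and the 3 highest and 3 lowest ratios. Markers were named as examples, and 1 gene that the rule names among the Myc cofactors is not reported here. Listed symbols without a row of their own were matched through RefSeq synonyms, for 14 pathway symbols, among them tcf3a, tcf3b, tcf15 and kat5a. The synonyms belong to a later assembly (GRCz12tu) than the build Zv9, so a match can be out of date. No joined row of several symbols held a member or list gene. Genome positions and sequences were not used here.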

Additional observations from a re-analysis of the deposited data

How the results depend on the processing

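With 1 library per fraction, no spread between samples could be estimated and no library could be left out. No paired analysis was possible because each group has 1 library. The 9 alternatives changed the pseudocount, the filter on low values, the scaling, the treatment of listed zeros or the size of a call. Each member kept the sign of its log2 ratio wherever it was considered. Only the changes of scaling could have altered a sign, because the other alternatives leave the direction of a ratio as it is. Id2b was left out with a minimum of 20 FPKM and with only genes above 0 in both libraries, and elsewhere ranged from 2.03 to 7.28. Of the others, id1 was as low as 0.00039, id2a ranged from 1.10 to 1.28 and mych from 0.62 to 0.79. Id3 ranged from -0.56 to -0.39 and myca from -0.62 to -0.42. Scaling to equal summed FPKM without rn7sk multiplied FPKM ratios by a constant worth -0.17 on the log2 scale, and by less for low genes after adding the pseudocount. The number of members called higher was 1 with a minimum of 20 FPKM, with only genes above 0 in both libraries or with a call at 3-fold, and 5 with a call at 1.5-fold. The summed Myc log2 ratio of 0.76 passed the 1.5-fold call, but at 0.583 under scaling without rn7sk it was just short of that size. No member was called lower under any alternative. Under scaling without rn7sk, where calls were at 2-fold, myca at -0.62 was past the 1.5-fold size. The number of Max network genes called lower was 2 with a pseudocount of 5 FPKM or a call at 3-fold, and the number higher was 0 with a minimum of 20 FPKM. Over the 9 pathway lists together, 25 genes were called higher and 28 lower, while 22.9% of all genes considered were higher and 26.5% lower. Under the main settings these lists held 4, 3, 19, 27, 5, 14, 36, 27 and 26 measured genes. With a pseudocount of 5 FPKM 21 list genes were higher and 17 lower, beside 16.1% and 17.9% of all genes considered. A minimum of 20 FPKM left 19 higher and 15 lower, beside 20.2% and 21.3%. With only genes above 0 in both libraries 17 were higher and 17 lower, beside 17.8% and 16.5%. With a call at 1.5-fold, 39 list genes were higher and 43 lower, beside 31.5% and 34.5% of all genes considered. Stricter settings leave fewer genes by construction.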
